A study of Cicer arietinum with 4 samples.

Results

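The genes described here were chosen by their measured levels: they were listed at 0 FPKM in both libraries of chickpea (*Cicer arietinum*) ovules taken before fertilization and at 1 FPKM or more in both libraries taken after it. They numbered 202, which is 0.754% of the 26792 eligible genes (an identifier beginning with LOC and a span of at least 300 bp from start to end), in a table of 28783 genes. FPKM is a fragment count scaled to transcript length and to the mapped fragments of the library. All ovules came from the cultivar ICC4958, the earlier ones from closed buds and the later ones from half-opened flowers, so the age of the flower and fertilization differ together. The labels name no further treatment and do not say how many plants or flowers went into a library, and where nothing says that libraries came from separate plants their spread may be technical. Each library is named here for the flower its ovules came from (bud A, bud B, flower A, flower B), and the letters carry no order.

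The ovule holds the egg cell and the central cell. After fertilization the egg cell gives rise to the embryo and the central cell to the endosperm, the tissue that feeds the embryo, while the surrounding layers become the seed coat. RNA from whole ovules pools the new tissues, the maternal layers and any pollen tube, the structure that delivers the sperm cells, and fewer cells of a type cannot be told apart from less RNA per cell. No member has a gene symbol and no product name is given for any of them, so the genes are described by identifier, RefSeq class, position and level, and no cell type markers could be checked.

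Because the rule used all 4 libraries and the difference between the groups, that difference is a description here and carries no test. A value of 0 can be a gene below detection or a failed estimate, so the genes are said to be listed at 0 and no fold is given. Ribosomal RNA genes, which every cell uses, show this limit: of 11 eligible ones, 7 were listed at 0 in both libraries before fertilization.

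Detection was lopsided towards the time after fertilization. Of 5180 eligible genes listed at 0 in both earlier libraries, 3592 stayed at 0 in all 4 libraries, 805 were above 0 in 1 later library and 783 in both. In the opposite direction 4258 genes were listed at 0 in both later libraries, of which 488 were above 0 in 1 earlier library and 178 in both. At 1 FPKM or more in both libraries of the other group this left 202 genes on and 4 off after fertilization, the latter being 0.0149% of eligible genes. The 4 were LOC101504495 (2.15 and 2.42 FPKM before), LOC101505009 (1.40 and 1.59), both protein-coding, and the long non-coding RNA genes LOC105851826 (1.04 and 1.84) and LOC113785728 (4.85 and 2.01). At 5 FPKM the counts were 74 and 0, and at 50 FPKM they were 7 and 0.

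**Figure D1:**
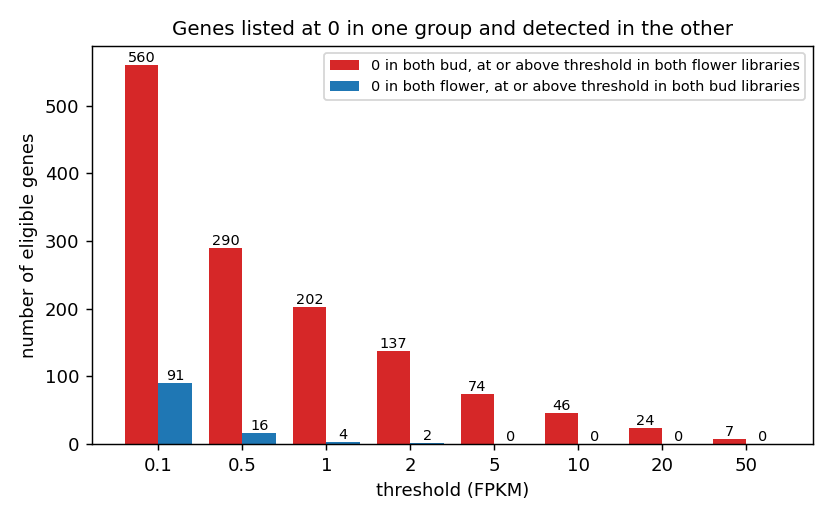
Number of eligible genes (vertical axis) listed at 0 in both libraries of one group and at or above a threshold in FPKM (horizontal axis) in both libraries of the other. Red bars, on after fertilization, exceed blue bars, off after fertilization, at each threshold, with 202 against 4 at 1 FPKM.

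Single libraries can be set side by side as well, although they are the ones the rule used. Relative depth, read from the lowest FPKM values of genes spanning 1000 to 1500 bp, was 0.551 of bud A in bud B, 1.01 in flower A and 1.10 in flower B, and absolute depth is unknown. The part of depth in the counts was not tested. From bud A to flower A, 285 genes went from 0 to at least 1 FPKM and 34 went the other way. From the shallower bud B to flower B the counts were 505 and 55. Replicates of a group disagreed on far fewer genes than those 285 and 505. Their highest counts were near the 34 genes at 0 in flower A and at 1 FPKM or more in bud A. Between the earlier libraries 9 genes were at 0 in bud A and at 1 FPKM or more in bud B, and 28 the reverse. Between the later libraries 33 genes were at 0 in flower A and at 1 FPKM or more in flower B, and 11 the reverse.

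**Figure D2:**
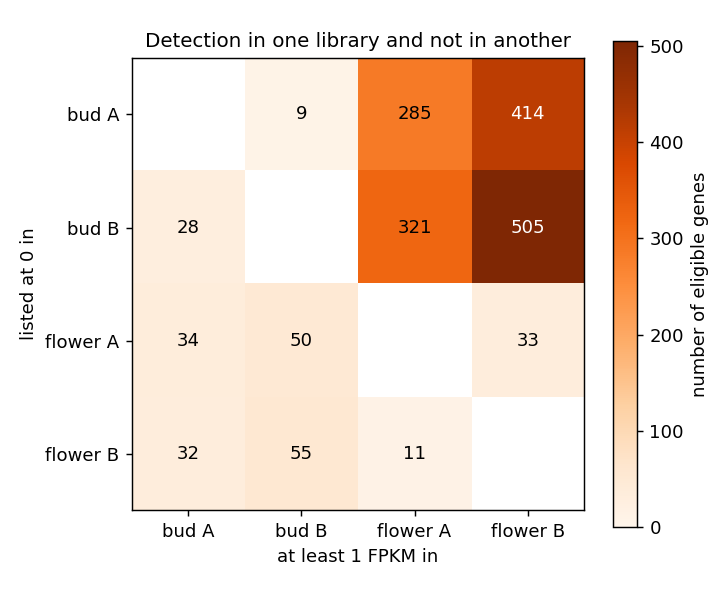
Number of eligible genes listed at 0 in the library of the row and at 1 FPKM or more in the library of the column. The 4 cells from a bud to a flower library hold 285 to 505 genes, the 4 in the other direction 32 to 55, and the 4 between replicates 9 to 33.

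The levels reached after fertilization were mostly modest. In flower A the members ranged from 1.01 to 954 FPKM with a median of 3.71, and in flower B from 1.01 to 929 FPKM with a median of 8.70. In both libraries at once, 46 members had 10 FPKM or more and 69 had 5 FPKM or less. The lowest values that bud B lists for genes of like span (median of the 5 lowest) had a median of 0.488 FPKM for the 16 members spanning under 450 bp. Each member was set against the floor for its own span, which was higher for the shortest. In 4 of these 16 the lower of the later values was under 3 times the gene's own floor in bud B, 1.26 FPKM. For these 4 a 0 in bud B is weak evidence of absence before fertilization, and the cut of 3 times was a chosen setting. Against the floors of bud A, 0 of the 16 were under 3 times. For members of 450 to 2000 bp the floors were lower, and the limit of 1 FPKM itself largely fixed that multiple, so nothing is read from it. For longer genes the span is a poor guide to transcript length. One of these, LOC101511298, spanning 33766 bp, was also under 3 times the floor of both earlier libraries.

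The limits of the rule cut through a continuum. Just inside it, LOC101499934 had 1.01 FPKM in flower A and 5.66 in flower B, and LOC101493427 had 1.07 and 1.01. Just outside, LOC113786129 had 0.984 and 7.86 FPKM and LOC101515785 had 0.982 and 10.4, both listed at 0 before. LOC101506754, protein-coding, was kept out by a value of 0.0366 FPKM in bud A, although bud B listed 0 and the later libraries 70.8 and 39.8 FPKM. LOC113787072 was kept out in the same way, with 0.0366 in bud A, 0 in bud B, and 11.7 and 15.7 FPKM after. On the span limit LOC113785386 and LOC101488868, both of 315 bp, were inside, at 30.4 and 47.9 FPKM and at 3.67 and 6.66 FPKM after fertilization, and the closest outside were the small nuclear RNA genes LOC113788102 (197 bp) and LOC113786861 (193 bp).

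By RefSeq class 116 of the members were protein-coding, 22 long non-coding RNA genes, 5 ribosomal RNA genes, 1 a pseudogene and 1 a miscellaneous RNA, and 57 had no entry in the RefSeq table used here, which is of another assembly. Long non-coding RNAs are transcripts without a recognised protein. The protein-coding members were lower, with medians of 2.79 FPKM in flower A and 5.59 in flower B. Members with no entry had medians of 6.30 and 20.8 FPKM, and long non-coding RNA genes 5.75 and 16.7 FPKM. Among the 20 members with the highest mean, 10 had no entry, 4 were protein-coding, 3 were long non-coding, 2 were ribosomal and 1 was the miscellaneous RNA.

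The 4 protein-coding genes of that top 20 had distinct profiles. LOC101501806, on an unplaced sequence, was listed at 0 in bud A and bud B and at 31.1 FPKM in flower A and 103 in flower B (mean 67.3 ± 51.2, SD, n = 2). LOC101490169, on chromosome 4 from 43770058 to 43771005, went from 0 and 0 to 43.5 and 75.1 FPKM (mean 59.3 ± 22.4, SD, n = 2). LOC101507993, on chromosome 3 from 3952655 to 3955380, went from 0 and 0 to 57.3 and 59.6 FPKM (mean 58.5 ± 1.62, SD, n = 2). This was the most even of the 4, whereas LOC101501806 was over 3 times as high in flower B as in flower A. LOC101503953, on chromosome 5 from 8055873 to 8058210, went from 0 and 0 to 22.5 and 61.7 FPKM (mean 42.1 ± 27.7, SD, n = 2). Next among protein-coding members, named here after their values were seen, were LOC101507354 on chromosome 8 with 42.4 and 19.8 FPKM, which was higher in flower A, and LOC101496430 on an unplaced sequence with 15.1 and 31.0 FPKM.

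Among long non-coding RNA genes LOC113786363, on chromosome 4 from 46018226 to 46018776, reached 54.0 FPKM in flower A and 185 in flower B. LOC113786111, on chromosome 4 from 21582484 to 21582941, reached 21.8 and 63.3 FPKM. The miscellaneous RNA gene LOC105851727, on chromosome 3 from 7771438 to 7772079, reached 38.2 and 89.4 FPKM. All of these were listed at 0 in both earlier libraries, and flower B was more than 2 times flower A in each.

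Members with no entry fell into an even and an uneven kind among the top 20. LOC101489728, on an unplaced sequence, had 72.7 FPKM in flower A and 84.1 in flower B, and LOC101501734, on chromosome 1 from 17612359 to 17613635, had 82.6 and 71.4 FPKM. The other 8 were 2.33 to 3.53 times as high in flower B as in flower A. Of these, LOC113785176, on chromosome 1 from 1511379 to 1511852, had 37.8 and 113 FPKM, LOC113787613, on chromosome 1 from 21684231 to 21684679, had 38.1 and 108 FPKM, and LOC113785400, on chromosome 1 from 47530359 to 47530912, had 37.4 and 98.7 FPKM. LOC113784745 had 38.8 and 90.3 FPKM, LOC113785374 had 23.8 and 74.3, LOC101492737 had 26.2 and 71.8, LOC113785180 had 20.02 and 70.6, and LOC113784922 had 20.2 and 69.7 FPKM.

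The span of the highest member contains a ribosomal RNA gene. Whether the level of that member comes from ribosomal reads was not tested. LOC113784402, annotated as a long non-coding RNA gene spanning 61472 bp of an unplaced sequence, had 954 FPKM in flower A and 929 in flower B. It contains the ribosomal RNA gene LOC113784404, also a member, at 49.2 and 25.1 FPKM. LOC113784402 alone held 31.5% of the members' summed FPKM in flower A and 19.4% in flower B. The remaining ribosomal RNA members were LOC113786837 (187 and 151 FPKM), LOC113784139 (94.8 and 100 FPKM), LOC113784995 (35.6 and 6.50 FPKM) and LOC113786836 (32.4 and 2.36 FPKM). LOC113786646, with no entry, overlaps LOC113786836 on chromosome 5 and had 60.4 and 3.15 FPKM. Of the ribosomal RNA genes that were not members, the following were at their highest in bud B. LOC113783997 had 4.02 FPKM in bud A, 1120 in bud B, 38.97 in flower A and 31.9 in flower B, and LOC113784642 had 0.231, 48.02, 32.98 and 1.004 FPKM. In the same order LOC113784737 had 0.0372, 13.6, 0.812 and 0.470 FPKM, and LOC113784088 had 0, 5.77, 0.411 and 0.0356 FPKM. The other non-members among them were listed at 0 in both earlier libraries. The sources used here do not say how ribosomal reads, or reads that match several copies, were treated, so values of single ribosomal RNA genes are uncertain. Without the 5 ribosomal RNA genes and the 2 members overlapping them 195 members remain.

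Most members were higher in flower B than in flower A, at 167 of 202 (82.7%). The same held for 48% of the 16280 other eligible genes with at least 1 FPKM in both later libraries. It held for 71.8% of the 458 of these that were above 0 but at most 0.5 FPKM on average before fertilization, called low before. The median log2 ratio of flower B to flower A, with 1 FPKM added to each, was 0.97 for members, 0.33 for the low-before genes and -0.01 for all 16280. Flower B was 2 to 4 times flower A for 43.1% of members, 21.2% of low-before genes and 3.07% of the 16280. The gap between members and low-before genes differed by span. Under 1000 bp, 93% of members and 77.2% of low-before genes were higher in flower B (median log2 ratio 1.30 and 0.35). At 1000 bp or more the shares were close, at 72.5% and 71.1% (0.50 and 0.32). The lean to flower B was not confined to members near the limit of 1 FPKM. For the 49 members with 5 to 20 FPKM in flower A the median log2 ratio was 1.11, against 0.00 for 6712 other genes in that range. The median was 1.03 for the 62 members with 2 to 5 FPKM and 0.66 for the 62 with 1 to 2 FPKM. The order of these ranges holds for 1 FPKM added, which shrinks ratios most at low levels. For the 29 members with 20 FPKM or more the median log2 ratio was 0.77, with 20 higher in flower B, against -0.05 for 6075 other genes. Low-before genes were not set apart by level. With 1 library on each side these ratios have no replicate error.

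**Figure D3:**
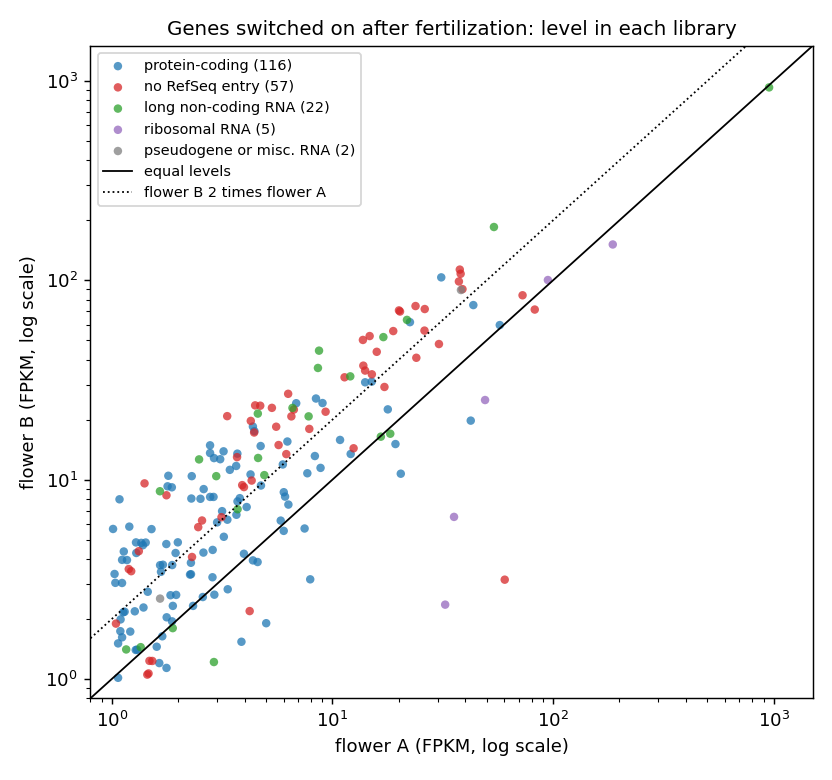
Level of each of the 202 members in flower A (horizontal axis) and flower B (vertical axis), in FPKM on log scales and coloured by RefSeq class. The solid line marks equal levels and the dotted line flower B at 2 times flower A, and 167 points lie above the solid line, while 4 of 5 ribosomal RNA genes lie below it.

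Among the members the ratio differed by class. It was above 1 in 97 of 116 protein-coding members, 50 of 57 with no entry and 17 of 22 long non-coding RNA genes, but in 1 of 5 ribosomal RNA genes. The median ratio of flower B to flower A was 1.91 for protein-coding members, 2.64 for those with no entry, 2.76 for long non-coding RNA genes and 0.510 for ribosomal RNA genes. Median spans differed as well, at 1723.5 bp for protein-coding members, 632 bp with no entry and 630 bp for long non-coding RNA genes. The part of span in the ratios by class was not tested. The largest log2 ratios belonged to LOC105853129 (3.33 FPKM in flower A and 20.8 in flower B), LOC113786352 (8.69 and 44.4 FPKM) and LOC105852997 (4.46 and 23.6 FPKM). The smallest belonged to LOC113786646, LOC113786836 and LOC113784995, all 3 given above with the ribosomal RNA genes.

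The members were short and often outside the assembled chromosomes. Their median span was 1011.5 bp, against 2431.5 bp for low-before genes and 4016 bp for the 16280 other genes detected after fertilization. A short gene is listed at 0 more easily, since 1 fragment is worth more FPKM on it. The part of this in the members' short spans was not tested. On unplaced sequences lay 62 members (30.7%), on 52 different sequences, against 15% of all eligible genes, 12.2% of low-before genes and 9.99% of other genes detected after. No RefSeq entry was found for 28.2% of members, 9.91% of all eligible genes, 3.71% of low-before genes and 1.96% of other genes detected after. Within genes spanning under 1000 bp these differences were still present. Of 100 such members 43% had no entry and 39% were unplaced, against 15.6% and 10% of 717 other genes detected after. Of 102 members spanning 1000 bp or more, 13.7% had no entry and 22.5% were unplaced, against 1.33% and 9.99% of 15563 others. On the chromosomes, members made up from 0.269% of eligible genes on chromosome 8 (4 members) to 0.893% on chromosome 1 (27 members), and 1.54% on unplaced sequences.

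**Figure D4:**
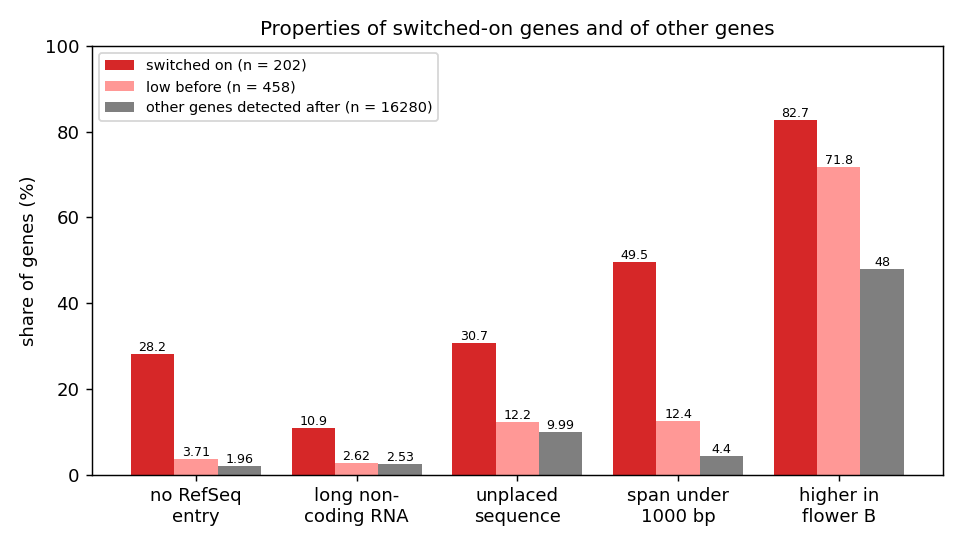
Share of genes (vertical axis, percent) with each property for the 202 members, the 458 low-before genes and the 16280 other eligible genes detected after fertilization. Members have the highest share for each of the 5 properties, from 10.9% long non-coding RNA genes to 82.7% higher in flower B.

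Members also lay near each other. Another member started within 50 kb of 41 of the 202 (20.3%), while a member lay that close to 3.43% of the 26590 other eligible genes and to 3.15% of the others detected after fertilization. The 41 formed 18 groups of 2 to 4, 5 of them on unplaced sequences, and 11 groups had no other gene between the first and last start. In the gene order of the RefSeq table, which follows another assembly, 21 of the 145 members with an entry (14.5%) had another within 3 places, against 2.53% of other eligible genes. Whether neighbours are similar copies that share reads was not tested.

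On chromosome 5, a group of 2 and a group of 3 lay in a stretch from 17956699 to 18117381, a length of 161 kb. Of 9 genes there, 5 were members, none with a RefSeq entry and each spanning 456 to 605 bp. LOC113786527 had 26.1 and 55.9 FPKM in flower A and flower B, and LOC113786525 had 18.9 and 55.6 FPKM. LOC113786542 had 5.32 and 22.9 FPKM, LOC113786535 had 6.68 and 22.5, and LOC113786533 had 4.71 and 23.5 FPKM. The last 3 differed little from each other in either library, and all 5 were 2.14 to 4.99 times as high in flower B. Of the other 4 genes in the stretch 3 were listed at 0 in all libraries.

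Similar groups lay on chromosomes 1, 4 and 7. On chromosome 1 from 21632769 to 21684679, LOC113785386, LOC113785470 (13.7 and 50.2 FPKM) and LOC113787613 followed each other with 1 gene listed at 0 in all 4 libraries between, all with no entry. On chromosome 4 from 45989669 to 46018776, LOC113786352 stood next to LOC113786363, both long non-coding, of 554 and 551 bp. Also on chromosome 4, from 43770058 to 43777463, LOC101490169 stood next to LOC101499270, which had 1.77 and 4.75 FPKM, so adjacent protein-coding members differed widely in level. On chromosome 7 from 156587 to 242583 the 4 members LOC113787836 (1.67 and 3.45 FPKM), LOC101504202 (5.70 and 14.9 FPKM), LOC113787624 (6.51 and 20.8 FPKM) and LOC101502275 (3.66 and 11.7 FPKM) were interspersed with 12 other genes. These others included LOC101505476, at 47.8 and 59.0 FPKM before and 65.3 and 76.4 after, so not every gene of the stretch was low before fertilization. They also included LOC101505163, which missed the rule with 0.305 FPKM in bud A and 0 in bud B, and had 2.72 and 9.33 FPKM after.

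**Figure D5:**
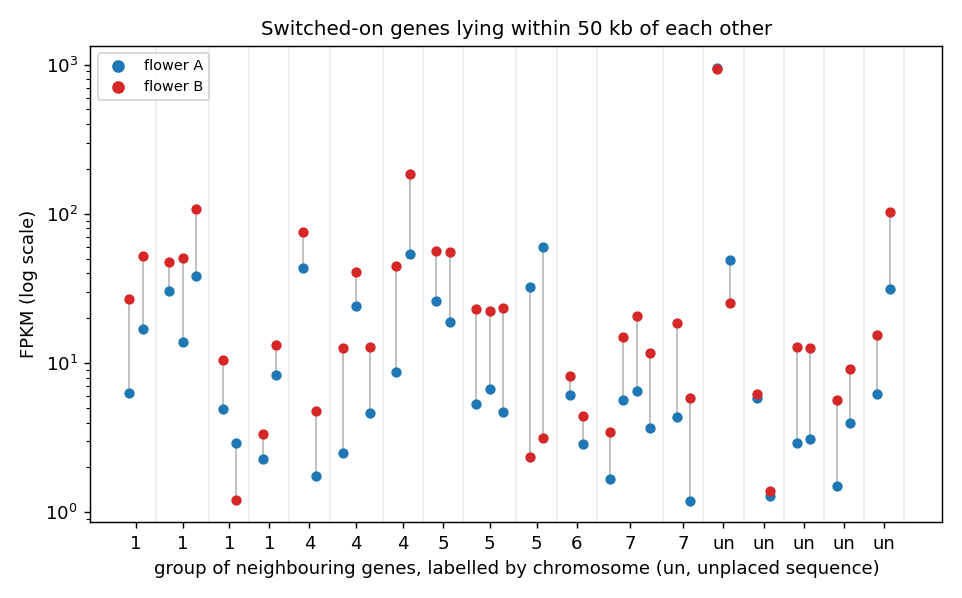
Level in flower A (blue) and flower B (red), in FPKM on a log scale, of the 41 members in 18 groups of neighbours, ordered by position within each group and labelled by chromosome. In 36 of the 41 the red point is the higher, while 167 of all 202 members (82.7%) are higher in flower B. The groups in which both members are higher in flower A are the pairs with a ribosomal RNA gene.

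Of the 5 groups on unplaced sequences, the members of 1 had similar levels. LOC101495775 and LOC101496097, both protein-coding, had 2.91 and 12.8 FPKM and 3.10 and 12.7 FPKM in flower A and flower B. LOC101501494 stood next to LOC101501806 and had 6.25 and 15.5 FPKM, well below its neighbour.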

How the data were processed

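Total RNA from chickpea ovules was sequenced in 2 libraries per group, as paired ends per the labels' protocols. The authors deposited 1 table of FPKM values, 1 per gene and library. Cufflinks, Cuffdiff, HISAT2, fastp and FastQC appear in the submitters' processing notes, with no version or role stated. The build, the annotation and the scaling across libraries are not stated, and coordinates are those of the table. Columns show the group but not which of its samples they hold, so libraries carry letters. Classes came from a RefSeq gene table (assembly Cicar.CDCFrontier_v2.0) matched on gene number, which found 145 of 202 members and 24138 of 26792 eligible genes. None of its coordinates are given, since only 203 genes have the same start, and it was used for classes and gene order. Sequences took the chromosome number that the majority of their genes carry there (96.8% of placed genes with an entry).

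Python 3.11.15, pandas 2.3.3 and matplotlib 3.10.9 were used. The lowest values per span came from genes within 5% of a member's span. Neighbours start within 50 kb of each other. No test was run, because the rule used the contrast. The members, lists and comparisons were chosen with earlier results of these data known. Named were the 20 members with the highest mean after fertilization, the 3 with the largest and the 3 with the smallest log2 ratio of flower B to flower A, the genes at the limits of the rule, and neighbouring members. Neighbours were to be named where their proteins were similar. Protein and promoter sequences were not used here, so neighbours were chosen after their values were seen, as were the named ribosomal RNA genes and the non-members beside the groups. Protein signatures and promoter motifs were not run for the same reason.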

Additional observations from a re-analysis of the deposited data

Results flagged for a closer look

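The pattern also appeared outside the identifiers and spans that the rule covers. The table of 28783 genes holds 26792 eligible ones, of which 202 (0.754%) met the rule. Among the genes that were not eligible, a further 20 were listed at 0 before fertilization and at 1 FPKM or more after it, each in both libraries. The opposite was shown by 3. Of the 20, 17 span under 300 bp, 10 of them small nucleolar RNA genes and 7 small nuclear RNA genes, 2 are tRNA genes without coordinates, and 1 is TFL1A, at 1.502 and 1.12 FPKM after fertilization. The small nucleolar RNA gene LOC113785206, of 79 bp, was listed at 374 FPKM in flower A and 373 in flower B. Others of this class were less even, such as LOC113785918 (84 bp) at 1516 and 218 FPKM and LOC113785229 (83 bp) at 482 and 1210. On genes this short 1 fragment is worth many FPKM. No floor was computed for them, so how far these values lie above detection is not known.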

How the results depend on the processing

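Most alternatives left the count of switched-on genes within 1.5 times 202. It was 74 at 5 FPKM and 102 for spans of at least 1000 bp, and 221 to 330 with 1 library left out, the highest without flower A. Between single libraries, an alternative added after the data were seen as were those on ribosomal RNA and on class, it was 321 from bud B to flower A, 414 from bud A to flower B and 505 from bud B to flower B. The count of 4 switched-off genes was 16 at 0.5 FPKM, 2 at 2 FPKM, 0 at 5 FPKM, 7 with values below 0.05 FPKM taken as 0, 18 with values below 0.1, 7 with no span filter and 15 after rescaling each library to an equal sum over eligible genes. It was 13 to 24 with 1 library left out (24 without bud A, 13 without bud B, 17 without flower A and 17 without flower B). Between single libraries it was 34 for bud A and flower A, 32 for bud A and flower B, 50 for bud B and flower A and 55 for bud B and flower B. In each of these settings fewer genes were off than on. The median log2 ratio of flower B to flower A, 0.97, was 1.11 with 0.1 FPKM added, 0.55 with 5 FPKM, 1.08 for members at 2 FPKM, 1.13 at 5 FPKM and 0.73 for protein-coding members. The median level after fertilization, 6.46 FPKM, was 11.4 for members at 2 FPKM, 22.5 at 5 FPKM and 10.8 after rescaling, and 3.71 in flower A alone and 8.70 in flower B alone. Rescaling multiplied each library by 1.66 to 1.88, so the level of 10.8 mainly reflects a change of unit. A limit of 1 FPKM is also less strict after it, which bears on the 15 switched-off genes. No paired analysis was possible because the columns carry no replicate number that matches the labels and no test was run. Depth limits what a 0 in bud B shows, above all on genes spanning under 450 bp.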
